A study of Mus musculus with 24 samples.

Results

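The transcription factor NRF2 and the antioxidant enzymes it is known to serve were followed through 10 genes, Nfe2l2, Keap1, Gclc, Gclm, Txnrd1, Hmox1, Gpx4, Sod2, Prdx1 and Osgin1, chosen by name for their roles. All 10 were found among the 23420 genes measured. RNA of splenic B cells from mice of the Balb/c strain was sequenced in 24 libraries, 3 in each of 8 groups. These were B cells of the germinal center (GC) at an early, a peak and a late stage, B cells activated in vivo, naive B cells, and B cells after 4 h, 12 h or 24 h of in vitro activation. The study profiled the RNA of GC B cells taken straight from the spleen, and the other groups allow them to be set against resting and activated cells. All cells shared the strain and the organ, and were bead purified, antibody stained and sorted before RNA isolation. The labels give no immunogen, in vitro stimulus, day, age, sex, animal or culture, so each p-value reflects no more than the spread among the libraries at hand, which may be technical.

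NRF2, the product of Nfe2l2, is a leucine zipper transcription factor that pairs with small MAF proteins and binds antioxidant response elements. KEAP1 is the adaptor through which a cullin 3 ubiquitin ligase marks NRF2 for degradation, and oxidation of KEAP1 cysteines lets NRF2 accumulate. NRF2 activity is therefore set largely at the protein level, which RNA does not measure. Its classical targets make glutathione (Gclc, Gclm), recycle thioredoxin (Txnrd1), remove peroxide (Prdx1) and break down heme (Hmox1), while Gpx4 and Sod2 guard membranes and mitochondria.

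Levels are the log2 values that the authors deposited, which behave like CPM (read counts scaled to a common library total) and on which a difference of 1 is a 2-fold change; read depth is unknown, so no detection limit can be given. Group values are means ± SD of 3 libraries, fold changes are log2 with their standard error, and adjusted p is from limma over the 11885 genes tested, called at 0.05. Markers of B cells were present at 1 CPM or more for 6 of 6 genes in each group, but their levels differed. They summed to 6460 to 6860 CPM in naive, 5200 to 6350 CPM in GC, 4690 to 5090 CPM in in vivo activated and 2530 to 3070 CPM in the in vitro libraries. Summed GC B-cell markers reached 1290 to 1750 CPM in the GC libraries, against 53.7 to 142 CPM in the other libraries. Ddx3y, a gene of the Y chromosome, lay between -6.21 and -6.13 log2 in the GC and in vivo activated libraries, against 5.71 to 5.77 in the naive and 4.50 to 5.60 in the in vitro libraries. That contrast and the cell groups cannot be told apart wherever a GC or in vivo activated group is set against naive or in vitro cells. Late GC replicate 1 stood apart in summed neutrophil markers (1050 CPM, against 214 and 78.1 CPM in the other late GC libraries) and macrophage and monocyte markers (2100 CPM, against 704 and 494 CPM). Without it the number of members called in late GC against naive cells was 9, as with it. Each comparison with naive cells uses the same 3 naive libraries.

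Promoter windows were read from RefSeq sequence of the build GRCm38.p6, from 250 bases before to 50 after a start site, and 8 of the 10 genes had an entry (13 windows); Gclc and Hmox1 had none. The antioxidant response element core was searched as TGACNNNGC and an AP-1 type element as TGANTCA, both on either strand. Of 32851 promoter windows in the whole table, 12.4% held the core and 7.81% the AP-1 type element. The core was found in windows of Gclm, Nfe2l2, Prdx1 and Txnrd1, and the AP-1 type element in those of Osgin1 and Prdx1. No match was found in the windows of Keap1, Gpx4 and Sod2, which says only that these letters are not there. Shown here are windows of 3 enzymes that hold the core, of which Gclm and Prdx1 were higher than in naive cells in all 7 other groups and Txnrd1 only in vitro, and that of Osgin1, whose group means span most; capitals mark the matches. Txnrd1 had 3 windows, and the 2 not shown held no match. The window of Nfe2l2, which also holds the core, is not shown, and Nfe2l2 was lower than in naive cells in all 7 other groups.
Gclm (chr3:122245307-122245606, + strand): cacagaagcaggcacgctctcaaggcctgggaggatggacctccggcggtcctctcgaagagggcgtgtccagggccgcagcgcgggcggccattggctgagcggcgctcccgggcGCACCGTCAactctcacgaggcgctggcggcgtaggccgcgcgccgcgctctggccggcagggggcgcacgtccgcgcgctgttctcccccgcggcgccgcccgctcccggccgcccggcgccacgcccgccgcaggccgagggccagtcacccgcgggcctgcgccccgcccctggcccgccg
Prdx1 (chr4:116685349-116685648, + strand): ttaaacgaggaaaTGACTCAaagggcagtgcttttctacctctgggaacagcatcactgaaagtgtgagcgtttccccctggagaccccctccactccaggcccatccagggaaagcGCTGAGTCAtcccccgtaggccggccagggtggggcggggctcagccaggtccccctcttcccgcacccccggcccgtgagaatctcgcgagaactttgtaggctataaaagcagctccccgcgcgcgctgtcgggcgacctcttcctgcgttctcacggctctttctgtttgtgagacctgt
Txnrd1 (chr10:82858956-82859255, + strand): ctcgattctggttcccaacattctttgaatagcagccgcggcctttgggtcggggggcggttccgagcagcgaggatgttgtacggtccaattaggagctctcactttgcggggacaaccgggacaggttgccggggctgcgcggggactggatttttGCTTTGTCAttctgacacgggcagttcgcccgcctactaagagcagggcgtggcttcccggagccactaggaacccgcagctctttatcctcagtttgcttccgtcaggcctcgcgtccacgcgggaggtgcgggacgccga
Osgin1 (chr8:119436897-119437196, + strand): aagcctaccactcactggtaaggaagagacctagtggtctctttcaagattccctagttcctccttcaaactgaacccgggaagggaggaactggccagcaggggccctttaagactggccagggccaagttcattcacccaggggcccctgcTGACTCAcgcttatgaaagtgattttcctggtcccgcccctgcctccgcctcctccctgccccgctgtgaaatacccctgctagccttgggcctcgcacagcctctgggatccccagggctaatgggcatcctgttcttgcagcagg
In Gclm the core lies on the minus strand, with its leftmost base as printed at -134 from the start site, and in Txnrd1 likewise at -92. In Prdx1 a minus strand core at -133 overlaps an AP-1 type element at -131, and a separate AP-1 type element lies at -237. The Osgin1 window has its AP-1 type element at -97 and no core. A match is a description of letters, not evidence that a factor binds.

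**Figure D1:**
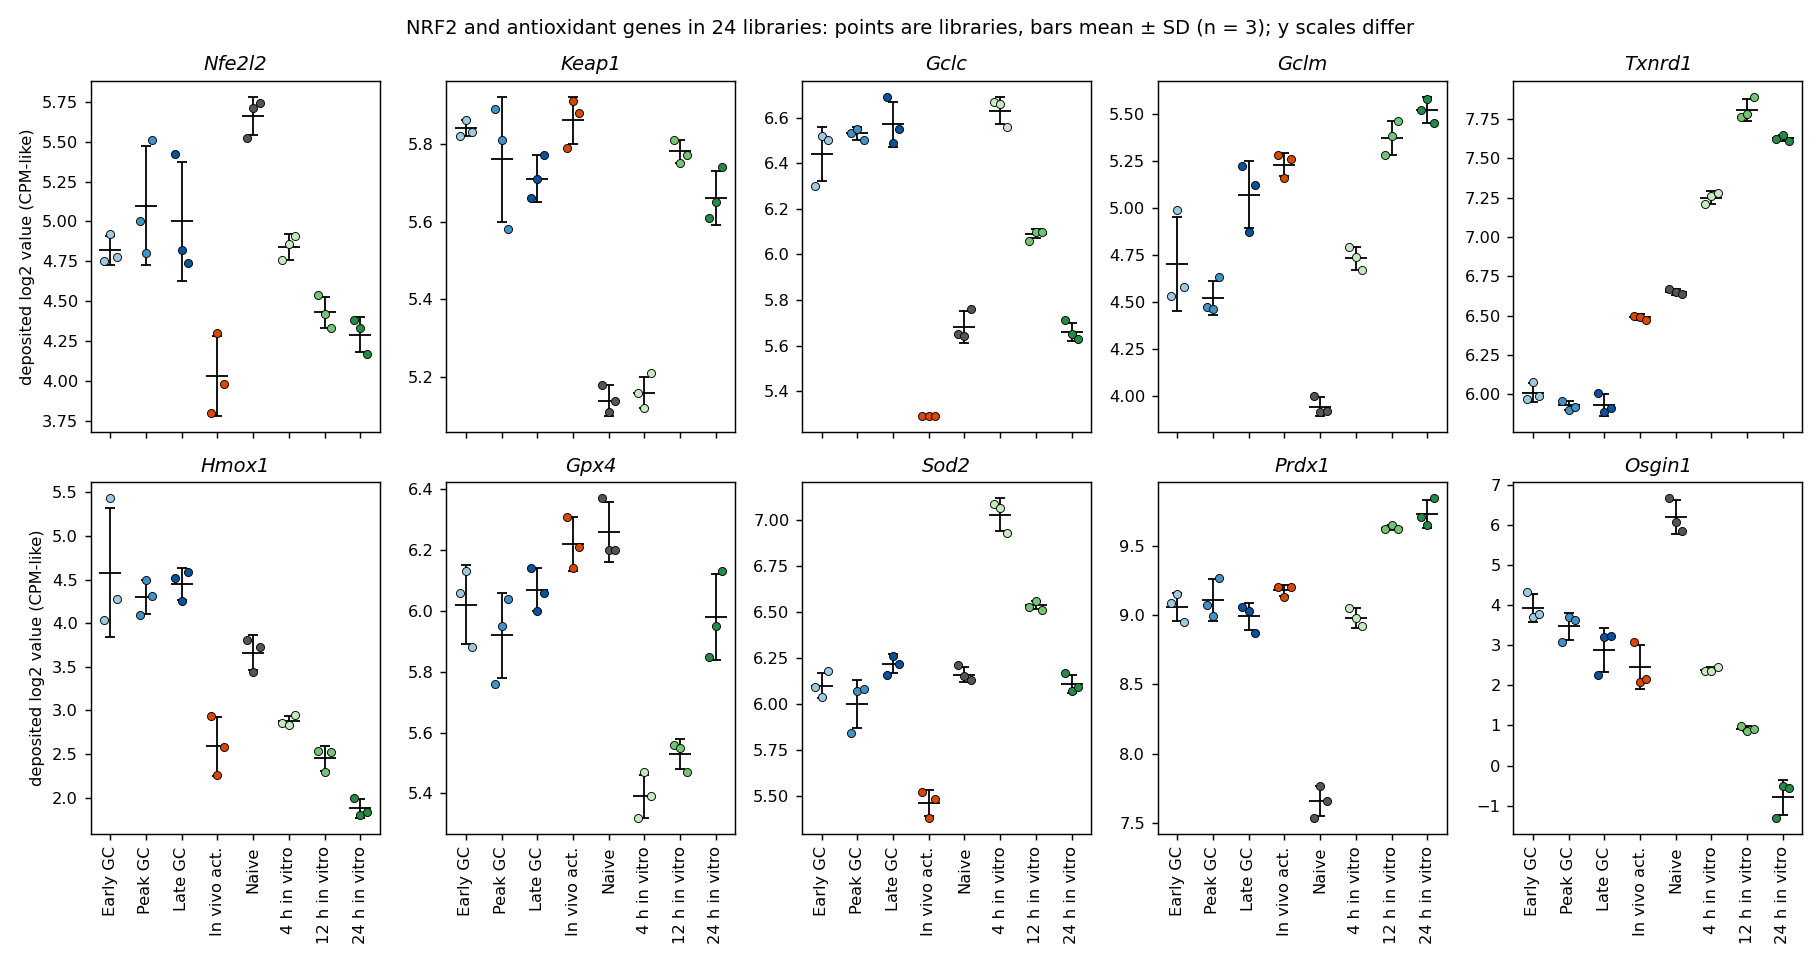
Deposited log2 values of the 10 genes (y axis, CPM-like, scales differ between panels) in 8 groups (x axis); points are libraries and bars the mean ± SD of 3. Osgin1 is highest in the naive libraries, at 5.84 to 6.66, and Prdx1 is lowest there, at 7.54 to 7.77.

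The 10 genes did not move as a block. Prdx1 and Gclm were higher than in naive cells in each of the 7 other groups, and Nfe2l2 and Osgin1 were lower in each of them. Txnrd1 fell in the GC and in vivo activated groups and rose in vitro, while Gclc and Hmox1 rose in the GC groups and fell in in vivo activated cells. Against naive cells, 5 genes were higher and 4 lower in early GC cells (background 79.7% of all genes called, 39.5% higher and 40.2% lower), 5 and 5 in peak GC cells (background 79.7% of all genes called, 40.5% higher and 39.3% lower), and 5 and 4 in late GC cells (background 81.6% of all genes called, 38.5% higher and 43.1% lower). In vivo activated cells had 3 higher and 6 lower (background 79.3% of all genes called, 39.2% higher and 40.1% lower). In vitro, 5 were higher and 4 lower at 4 h (background 78% of all genes called, 38.9% higher and 39.1% lower), 6 and 4 at 12 h (background 80.9% of all genes called, 41.7% higher and 39.2% lower), and 4 and 4 at 24 h (background 84.8% of all genes called, 42.2% higher and 42.5% lower). At a change of 2-fold or more, 2 of the 10 genes were called in early GC (background 33.7%), 2 in peak GC (background 34.7%), 3 in late GC (background 36.4%) and 5 in in vivo activated cells (background 33.5%). The same count was 2 at 4 h (background 33.7%), 6 at 12 h (background 38.9%) and 5 at 24 h (background 46.7%). The called shares are near the background in all 7 comparisons and those at 2-fold lie on both sides of it, so the counts set the 10 genes apart from no others, and the sizes and directions of the single genes carry the description. The median size of the log2 fold change over the 10 genes was 0.63 in peak GC cells, against 0.68 over all genes tested, and 1.17 at 24 h in vitro, against 0.93 over all genes.

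**Figure D2:**
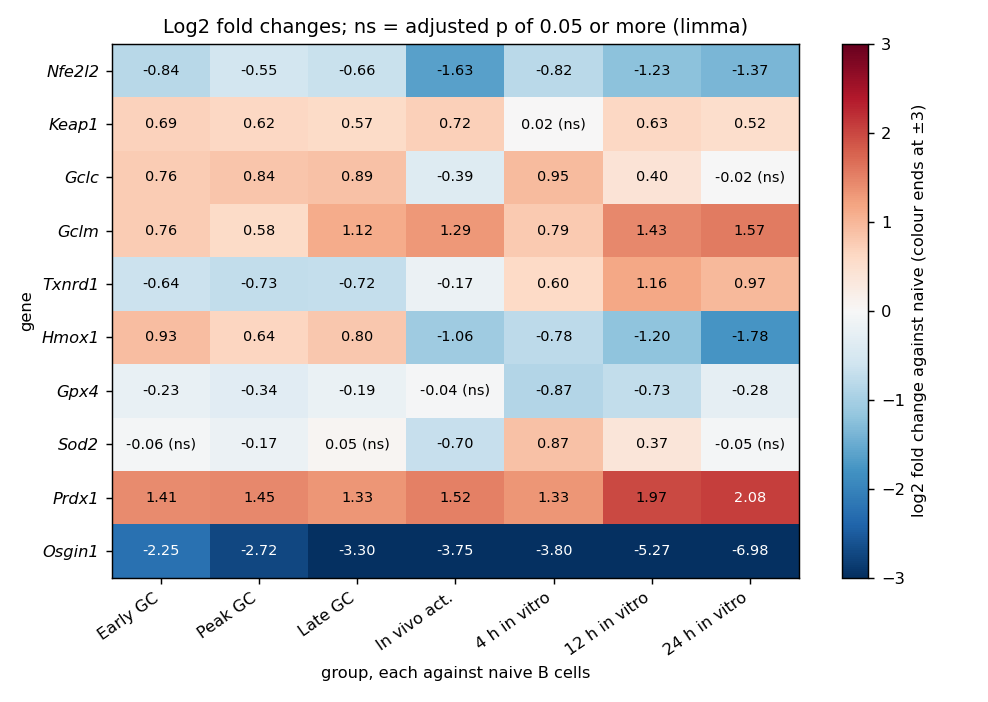
Log2 fold changes of the 10 genes (rows) in 7 groups (columns), each against naive B cells; colour ends at ±3 and ns marks an adjusted p of 0.05 or more. The Prdx1 and Gclm rows are positive throughout and the Nfe2l2 and Osgin1 rows negative, with Osgin1 reaching -6.98 at 24 h.

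Nfe2l2, the gene of NRF2 itself, was highest in naive cells. Its log2 levels were 4.75, 4.92 and 4.78 in early GC libraries, 5.0, 4.80 and 5.51 in peak GC, 5.42, 4.82 and 4.74 in late GC and 3.80, 4.30 and 3.98 in in vivo activated libraries, against 5.52, 5.71 and 5.74 in naive libraries. At 4 h, 12 h and 24 h in vitro the log2 means were 4.84 ± 0.08, 4.43 ± 0.10 and 4.29 ± 0.11. No library of another group reached the lowest naive value, although 1 peak GC library (5.51) and 1 late GC library (5.42) came close. The log2 fold change against naive cells was -0.55 ± 0.16 in peak GC cells (adjusted p = 0.00401) and -1.63 ± 0.16 in in vivo activated cells (adjusted p = 7.34e-09), the lowest group. In vitro the fold change was -0.82 ± 0.16 at 4 h, -1.23 ± 0.16 at 12 h and -1.37 ± 0.16 at 24 h. The further fall between 4 h and 12 h (-0.41 ± 0.16, adjusted p = 0.0345) lost its call in 5 alternatives, 4 of them with 1 library left out (adjusted p 0.0719 to 0.104).

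Keap1, the inhibitor of NRF2, moved the other way in most groups. Its log2 level was 5.84 ± 0.02 in early GC, 5.76 ± 0.16 in peak GC, 5.71 ± 0.06 in late GC and 5.86 ± 0.06 in in vivo activated cells, against 5.14 ± 0.04 in naive cells. The rise against naive cells was 0.62 ± 0.06 in peak GC cells (adjusted p = 5.16e-09) and 0.72 ± 0.06 in in vivo activated cells (adjusted p = 4.22e-10). In vitro, Keap1 showed a log2 fold change of 0.02 ± 0.06 at 4 h (adjusted p = 0.83, 95% interval -0.12 to 0.15), and was higher by 0.63 ± 0.06 at 12 h and 0.52 ± 0.06 at 24 h. Nfe2l2 was thus already lower at 4 h, when the Keap1 interval still included no change. Keap1 varied least of the 10 genes, with group means spanning 0.72 log2. It shares 510 exon bases with an antisense gene, Gm16754; the library kit keeps strand, but the counting setting is not given in the sources used here, so reads of that overlap may not be separated.

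Set per kilobase of exon within each library, Nfe2l2 exceeded Keap1 only in naive cells on average. The length merges all annotated exons of a gene and need not match the RNA that was counted. The sign of a difference near equality, as at 4 h in vitro, depends on that length, while shifts between groups do not. The log2 difference, Nfe2l2 minus Keap1, was -0.71 ± 0.06 in early GC, -0.35 ± 0.51 in peak GC, -0.41 ± 0.42 in late GC and -1.53 ± 0.20 in in vivo activated cells, against 0.82 ± 0.15 in naive cells. From 4 h to 12 h and 24 h in vitro it was -0.01 ± 0.07, -1.04 ± 0.08 and -1.07 ± 0.18. In peak and late GC cells the 2 libraries with high Nfe2l2 named above stood apart from the other libraries of their groups, at 0.23 and 0.07. The same libraries, peak GC replicate 3 and late GC replicate 1, were the highest of their groups in macrophage and neutrophil markers, whose part in the Nfe2l2 level was not tested. Macrophage and monocyte markers summed to 123, 159 and 271 CPM in peak GC replicates 1 to 3 and to 2100, 704 and 494 CPM in late GC replicates 1 to 3. Neutrophil markers summed to 21.5, 28.5 and 93.2 CPM in peak GC and 1050, 214 and 78.1 CPM in late GC replicates 1 to 3. Without these libraries the log2 fold change of Nfe2l2 against naive cells was -0.76 in peak GC cells (limma adjusted p = 1.34e-04) and -0.88 in late GC cells (limma adjusted p = 1.73e-05). Nfe2l2 minus Keap1 is a ratio of RNA levels and says nothing of the protein ratio.

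Regulators of NRF2 were followed in a list that includes Nfe2l2 and Keap1. As the background for this and the other gene lists, of all genes tested against naive cells 40.5% were higher and 39.3% lower in peak GC cells, 39.2% and 40.1% in in vivo activated cells and 42.2% and 42.5% at 24 h. In peak GC against naive cells, 8 of 17 tested genes rose and 9 fell, and the median log2 fold change was -0.52, against 0.01 over all genes tested. Palb2, whose protein carries a KEAP1-binding motif, had a log2 level of 3.58 ± 0.03 in peak GC cells, against 1.75 ± 0.28 in naive cells (adjusted p = 1.24e-12). Nfe2l1, the related factor NRF1, was at 6.38 ± 0.02 in peak GC cells, against 7.59 ± 0.02 in naive cells (adjusted p = 3.30e-17), yet at 4 h in vitro it was higher, by 0.80 log2 (adjusted p = 8.99e-14). In in vivo activated cells 6 of 17 tested genes rose and 10 fell, with a median log2 fold change of -0.51, against -0.02 over all genes tested. Bach2, a repressor that competes for MAF partners at such elements, stood at 5.84 ± 0.19 log2 in in vivo activated cells, against 8.82 ± 0.04 in naive cells, a fold change of -2.98 (adjusted p = 6.24e-16). At 24 h in vitro 6 of 17 tested genes rose and 10 fell, Bach2 among them at -1.91 and Gsk3b, a kinase that primes NRF2 for an alternative ligase, at -1.61 log2 (adjusted p = 8.60e-16).

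Glutamate-cysteine ligase, the rate-limiting enzyme of glutathione synthesis, has a catalytic subunit (Gclc) and a modifier subunit (Gclm), and their RNAs took different courses. Gclc had log2 levels of 6.30, 6.52 and 6.50 in early GC, 6.53, 6.55 and 6.50 in peak GC, 6.69, 6.49 and 6.55 in late GC and 5.29, 5.29 and 5.29 in in vivo activated libraries, against 5.65, 5.64 and 5.76 in naive libraries. All 9 GC libraries were above and all 3 in vivo activated libraries below the naive ones, with no overlap. Its log2 fold change against naive cells was 0.84 ± 0.06 in peak GC cells (adjusted p = 5.08e-12) and -0.39 ± 0.06 in in vivo activated cells (adjusted p = 2.02e-06). Set directly against each other, peak GC cells were 2.36-fold above in vivo activated cells (1.24 ± 0.06 log2, adjusted p = 9.53e-15). In vitro, Gclc peaked early: its log2 level was 6.63 ± 0.06 at 4 h, 6.09 ± 0.02 at 12 h and 5.66 ± 0.04 at 24 h, with fold changes against naive cells of 0.95 ± 0.06, 0.40 ± 0.06 and -0.02 ± 0.06. The 24 h difference did not pass the test (adjusted p = 0.757, 95% interval -0.14 to 0.10).

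Gclm was lowest in naive cells and kept a higher level throughout activation. Its log2 levels were 4.53, 4.99 and 4.58 in early GC, 4.47, 4.46 and 4.63 in peak GC, 5.22, 4.87 and 5.12 in late GC and 5.28, 5.16 and 5.26 in in vivo activated libraries, against 4.0, 3.91 and 3.92 in naive libraries. No library of the other groups fell into the naive range. The log2 fold change against naive cells was 0.58 ± 0.10 in peak GC cells (adjusted p = 1.01e-05) and 1.29 ± 0.10 in in vivo activated cells (adjusted p = 2.13e-11), and the log2 difference of peak GC from in vivo activated cells was -0.71 ± 0.10 (adjusted p = 7.41e-07). In vitro its log2 means were 4.73 ± 0.06, 5.37 ± 0.09 and 5.52 ± 0.07 at 4 h, 12 h and 24 h, of which the last step (0.14 ± 0.10, adjusted p = 0.218) was not called. Its exons overlap Gm17494 on the opposite strand by 296 bases and the pseudogene Gm6061 on the same strand by 244 bases, so part of its count is uncertain.

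**Figure D3:**
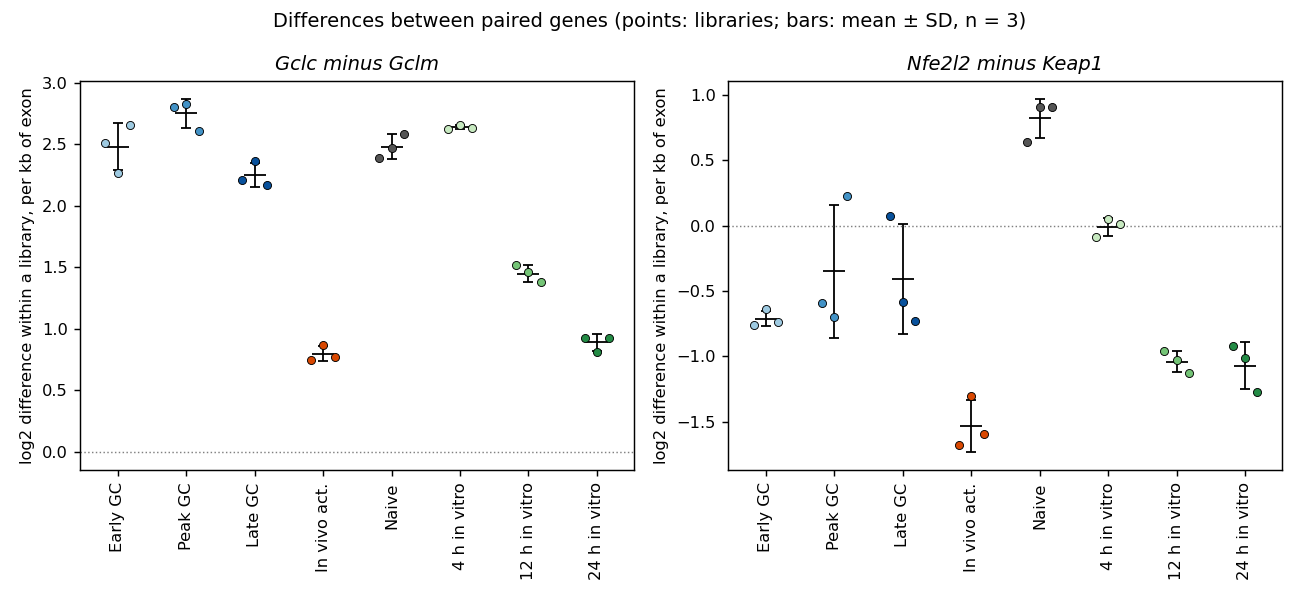
Log2 difference per kilobase of exon within each library (y axis) for Gclc minus Gclm and for Nfe2l2 minus Keap1 in 8 groups (x axis). Points are libraries, bars the mean ± SD of 3, and the dotted line is equality at the merged exon lengths used. Gclc minus Gclm lies at 0.80 ± 0.06 in in vivo activated and 0.89 ± 0.07 in 24 h cells, below all other groups.

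The balance of the 2 subunits differed between groups. Per kilobase, Gclc minus Gclm was 2.48 ± 0.19 log2 in early GC, 2.75 ± 0.12 in peak GC and 2.25 ± 0.10 in late GC cells, against 2.48 ± 0.10 in naive cells. In in vivo activated cells it was 0.80 ± 0.06. It stood at 2.64 ± 0.02 at 4 h in vitro, 1.45 ± 0.07 at 12 h and 0.89 ± 0.07 at 24 h. Both subunit RNAs were raised together in GC cells, whereas in in vivo activated cells Gclm rose and Gclc fell. Across 24 libraries, which share their groups, the correlation of Gclc with Gclm was r = -0.19, given as a description.

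Among the genes of glutathione synthesis and use, 31 of the 39 listed passed the low-value filter. In peak GC against naive cells, 16 of 31 tested genes rose and 8 fell, with a median log2 fold change of 0.24, against 0.01 over all genes tested. The glutaredoxin Glrx3 was at 5.86 ± 0.04 log2 in peak GC cells, against 3.51 ± 0.11 in naive cells (adjusted p = 2.69e-14). In in vivo activated cells 18 of 31 tested genes rose and 8 fell (median 0.51, against -0.02 over all genes tested). Gstt2, a glutathione transferase, was among the risers, at 6.0 ± 0.17 log2 in in vivo activated cells, against 3.89 ± 0.14 in naive cells (adjusted p = 5.17e-14). At 24 h in vitro 15 of 31 tested genes rose and 13 fell (median 0.08, against -0.01 over all genes tested). Gsr, glutathione reductase, was at 5.86 ± 0.04 log2 at 24 h, against 4.29 ± 0.09 in naive cells (adjusted p = 8.33e-14).

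Txnrd1, the cytosolic selenoenzyme that reduces thioredoxin, separated the in vitro from the GC cells. Its log2 levels were 5.97, 6.08 and 5.99 in early GC, 5.96, 5.90 and 5.92 in peak GC, 6.01, 5.89 and 5.91 in late GC and 6.50, 6.49 and 6.47 in in vivo activated libraries, against 6.67, 6.65 and 6.64 in naive libraries. After 4 h, 12 h and 24 h in vitro the means were 7.25 ± 0.04, 7.81 ± 0.07 and 7.63 ± 0.02. All in vitro libraries lay above and all GC and in vivo activated libraries below the naive range. The log2 fold change against naive cells was -0.73 ± 0.05 in peak GC cells (adjusted p = 8.53e-13), -0.17 ± 0.05 in in vivo activated cells (adjusted p = 0.00214) and 1.16 ± 0.05 at 12 h in vitro (adjusted p = 1.18e-16). Peak GC cells were also lower than in vivo activated cells, with a log2 difference of -0.56 ± 0.05 (adjusted p = 2.10e-10).

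Prdx1, a peroxiredoxin that reduces hydrogen peroxide with electrons from thioredoxin, was the most abundant of the 10 per kilobase, at 7.44 log2 CPM per kilobase averaged over the groups. Its log2 levels were 9.09, 9.15 and 8.95 in early GC, 9.07, 8.99 and 9.27 in peak GC, 9.06, 9.03 and 8.87 in late GC and 9.20, 9.13 and 9.20 in in vivo activated libraries, against 7.54, 7.77 and 7.66 in naive libraries. In vitro it had means of 8.98 ± 0.07 at 4 h, 9.63 ± 0.02 at 12 h and 9.73 ± 0.10 at 24 h. Every library outside the naive group exceeded the highest naive value by more than 1 log2 unit. The fold change against naive cells was 2.73 in peak GC cells (1.45 ± 0.07 log2, adjusted p = 6.93e-15), 2.86 in in vivo activated cells (1.52 ± 0.07 log2, adjusted p = 3.64e-15) and 4.22 at 24 h (2.08 ± 0.07 log2, adjusted p = 4.52e-18). Peak GC and in vivo activated cells differed by -0.07 ± 0.07 log2, which was not called (adjusted p = 0.41, 95% interval -0.21 to 0.08). Prdx1 and Txnrd1 were both higher than in naive cells at each time in vitro, while in GC cells Prdx1 was higher and Txnrd1 lower. Between 12 h and 24 h Txnrd1 fell (log2 fold change -0.18 ± 0.05, adjusted p = 0.00163), and Prdx1 was not called (0.11 ± 0.07, adjusted p = 0.208).

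All 23 listed genes of the thioredoxin and peroxiredoxin system were tested. In peak GC against naive cells 11 of 23 tested genes rose and 7 fell (median log2 fold change 0.28, against 0.01 over all genes tested), in in vivo activated cells 13 of 23 tested genes rose and 7 fell (median 0.38, against -0.02 over all genes tested), and at 24 h 16 of 23 tested genes rose and 6 fell (median 0.99, against -0.01 over all genes tested). Txn1, the cytosolic thioredoxin that both enzymes work with, rose in all of these, to a log2 level of 8.48 ± 0.08 in peak GC cells, 8.20 ± 0.07 in in vivo activated cells and 8.41 ± 0.07 at 24 h, against 5.83 ± 0.02 in naive cells (adjusted p = 4.13e-22, 3.91e-21 and 6.96e-22). The fall of Txnrd1 in GC cells stood beside a rise of its substrate. Txnip, which inhibits thioredoxin, fell in in vivo activated cells (-1.66 log2, adjusted p = 1.04e-14) and at 24 h in vitro (-2.57 log2, adjusted p = 1.51e-18). Txnrd3, a related reductase, was at 1.03 ± 0.16 log2 in peak GC cells and at 6.79 ± 0.08 after 4 h in vitro, against 3.25 ± 0.15 in naive cells (adjusted p = 7.28e-13 and 1.29e-16).

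Hmox1, heme oxygenase 1, which opens heme to biliverdin, iron and carbon monoxide, rose in GC cells and fell in all other activated groups. Its log2 levels were 4.04, 5.43 and 4.28 in early GC, 4.09, 4.49 and 4.31 in peak GC, 4.52, 4.25 and 4.59 in late GC and 2.94, 2.26 and 2.58 in in vivo activated libraries, against 3.81, 3.44 and 3.73 in naive libraries. In vitro the means were 2.88 ± 0.06 at 4 h, 2.45 ± 0.14 at 12 h and 1.88 ± 0.11 at 24 h. All GC libraries were above and all other activated libraries below the naive range, and early GC replicate 2 (5.43) stood above the other GC libraries. The log2 fold change against naive cells was 0.93 ± 0.24 in early GC (adjusted p = 0.00118), 0.64 ± 0.24 in peak GC (adjusted p = 0.0172), 0.80 ± 0.24 in late GC (adjusted p = 0.00388), -1.06 ± 0.24 in in vivo activated cells (adjusted p = 3.33e-04) and -1.78 ± 0.24 at 24 h (adjusted p = 4.28e-07). The early GC call was lost in a fit on these 2 groups alone (adjusted p = 0.087) and was kept without early GC replicate 2 (0.51 log2, adjusted p = 0.00791). The peak GC call was lost without the low-value filter (adjusted p = 0.0544) and without peak GC replicate 2 or naive replicate 2 (adjusted p = 0.0694 and 0.0744).

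Hmox1 is also strongly expressed by splenic macrophages that clear red cells, and macrophage markers differed between the same groups. The 12 listed macrophage and monocyte markers summed to 316, 280 and 194 CPM in early GC, 123, 159 and 271 in peak GC, 2100, 704 and 494 in late GC and 33.8, 38.3 and 40.8 in in vivo activated libraries, against 67.3, 60.5 and 64 in naive libraries. They summed to 15.2 to 26.0 CPM in vitro. A sum is weighted by its most abundant gene. In late and peak GC libraries, and in early GC replicates 1 and 3, most of it was Lyz2. In replicates 1 to 3 Lyz2 was at 10.82, 9.21 and 8.60 log2 in late GC and 6.37, 6.80 and 7.73 in peak GC libraries, against 4.48, 4.46 and 3.91 in naive libraries. Of the 12, the number at 1 CPM or more in all 3 libraries was 9 in early GC, 8 in peak GC, 10 in late GC and 6 in in vivo activated cells, against 10 in naive cells; none was at the floor (under -5 log2) in all 3 libraries of a group. Late GC replicate 1 had the highest sum but a Hmox1 level (4.52) inside the range of its group. Early GC replicate 2, highest in Hmox1, was also highest of its group in Vcam1 (2.01, 5.37 and 3.54 log2 in replicates 1 to 3) and Slc40a1 (2.11, 4.53 and 2.96), both chosen from the list after their values were seen. Other markers of the list ordered these libraries differently. Lyz2 was lowest in replicate 2 (7.92, 6.84 and 6.98 log2 in replicates 1 to 3), and Cd14 was highest in replicate 1 (4.41, 3.54 and 3.34). Of the first 3 listed markers, Csf1r had log2 levels of 2.82, 3.29 and 3.83 in peak GC libraries, against 2.66, 2.49 and 3.0 in naive libraries. Emr1 had 1.02, 1.33 and 1.21 in peak GC libraries, against 2.02, 1.48 and 2.01 in naive libraries. Cd14 had 2.90, 2.86 and 3.85 in peak GC libraries, against 1.11, 0.50 and 0.20 in naive libraries. Cd14 was thus higher in every peak GC library and Emr1 lower, while the Csf1r values of the 2 groups overlapped. Of 11 tested markers, 3 were higher and 4 lower in peak GC against naive cells (background 40.5% higher and 39.3% lower). Their median log2 fold change was -0.65, so the higher sum was not shared across the list. Slc40a1 and Vcam1 had means of 1.44 and 1.76 log2 in peak GC cells, against 2.58 and 3.23 in naive cells. In early and in late GC cells 6 of 11 were higher and 1 lower (background 39.5% and 40.2%, and 38.5% and 43.1%). Erythroid markers summed to 320, 783 and 606 CPM in early GC, 200, 216 and 179 in peak GC and 1430, 768 and 985 in late GC, against 102, 102 and 91.8 in naive libraries, with Hba-a1 at the floor in all groups. Their part in the Hmox1 result was not tested, and in bulk RNA fewer cells of a type cannot be told apart from less RNA per cell.

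**Figure D4:**
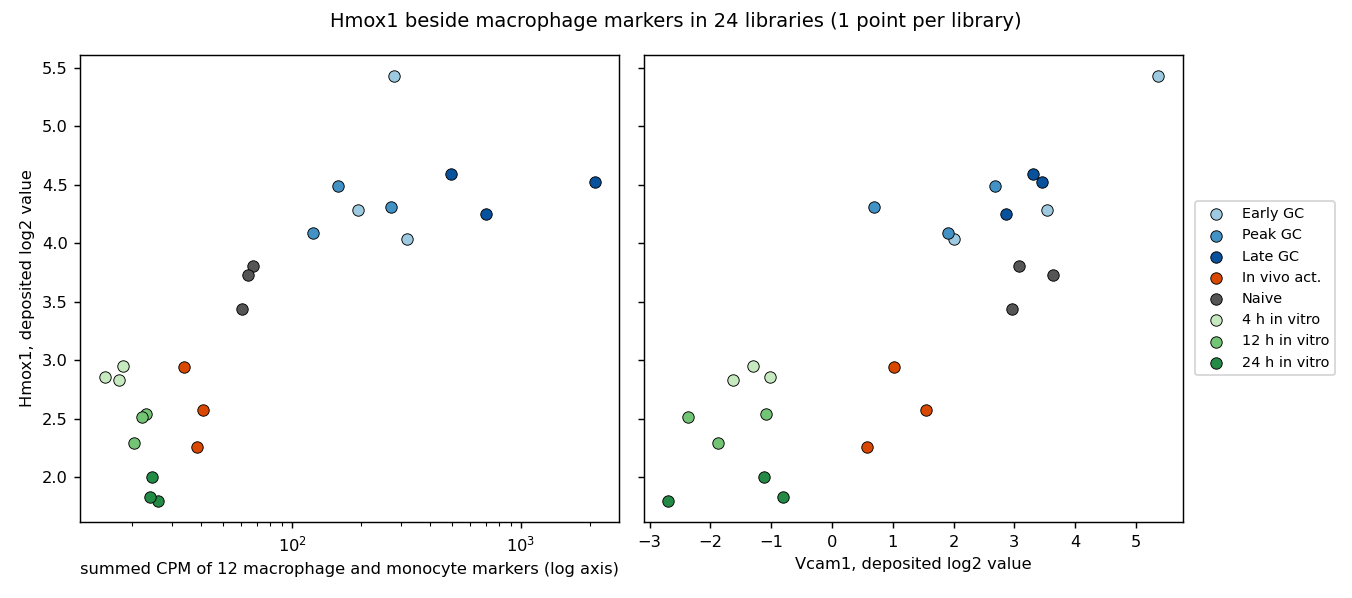
Hmox1 (y axis, deposited log2 value) beside the summed CPM of 12 macrophage and monocyte markers (left, log axis) and beside Vcam1 (right, deposited log2 value), 1 point per library of 8 groups. GC libraries are highest in Hmox1 and in the marker sum, while late GC replicate 1, at 2100 CPM, has a Hmox1 value of 4.52, and early GC replicate 2, at 5.43, has the highest Vcam1. Vcam1 was chosen for this plot after its values were seen, and Lyz2 and Cd14 were not highest of their group in that library. Most of the marker sum in late and peak GC libraries is Lyz2.

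Of the 25 listed genes of heme and iron handling, 24 were tested. In peak GC cells, relative to naive cells, 10 of 24 tested genes rose and 6 fell (median log2 fold change 0.12, against 0.01 over all genes tested). Cpox and Alad, enzymes of heme synthesis, were higher in peak GC cells, at 5.51 ± 0.07 and 6.98 ± 0.07 log2, against 4.33 ± 0.06 and 5.86 ± 0.07 in naive cells (adjusted p = 2.77e-11 and 4.03e-10). Erythroid markers summed to 179 to 216 CPM in the same peak GC libraries, against 91.8 to 102 CPM in naive libraries, and their part in this result was not tested. In in vivo activated cells 9 of 24 tested genes rose and 9 fell (median -0.08, against -0.02 over all genes tested). Fth1, the ferritin heavy chain and iron store, stood at 9.78 ± 0.03 log2 in in vivo activated and 9.21 ± 0.07 in 24 h cells, against 10.73 ± 0.04 in naive cells (adjusted p = 1.14e-16 and 1.21e-20). At 24 h in vitro 11 of 24 tested genes rose and 9 fell (median 0.03, against -0.01 over all genes tested). Blvrb, biliverdin reductase B, was at 3.60 ± 0.12 log2 at 24 h, against 6.25 ± 0.09 in naive cells (adjusted p = 7.25e-19). Blvra, biliverdin reductase A, went the other way, at 5.11 ± 0.11 log2 at 24 h, against 4.18 ± 0.04 in naive cells. The transferrin receptor Tfrc, which takes up iron, was higher at 4 h in vitro, at 9.18 ± 0.10 log2, against 6.77 ± 0.27 in naive cells (adjusted p = 1.39e-12).

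Gpx4, the selenoenzyme that reduces lipid hydroperoxides in membranes, fell slightly in GC cells and most at 4 h and 12 h in vitro. Its log2 level was 6.02 ± 0.13 in early GC, 5.92 ± 0.14 in peak GC, 6.07 ± 0.07 in late GC and 6.22 ± 0.09 in in vivo activated cells, against 6.26 ± 0.10 in naive cells. At 4 h, 12 h and 24 h in vitro the means were 5.39 ± 0.07, 5.53 ± 0.05 and 5.98 ± 0.14. The 4 h and 12 h libraries lay below those of every other group. Against naive cells its log2 fold change was -0.87 ± 0.08 at 4 h (adjusted p = 1.17e-09), -0.73 ± 0.08 at 12 h (adjusted p = 1.82e-08) and -0.28 ± 0.08 at 24 h (adjusted p = 0.00308), with a rise of 0.45 ± 0.08 between 12 h and 24 h (adjusted p = 6.10e-05). In peak GC cells it was -0.34 ± 0.08 (adjusted p = 5.71e-04); the smaller falls in early and late GC cells (-0.23 and -0.19, adjusted p = 0.0115 and 0.0363) lost their call in some alternatives, with adjusted p of 0.0735 and 0.176 without naive replicate 1. In in vivo activated cells the difference of -0.04 ± 0.08 was not called (adjusted p = 0.671, 95% interval -0.21 to 0.13). A pseudogene copy, Gpx4-ps2, is annotated, and reads could be shared with it.

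Gpx4 and Txnrd1 are selenoproteins, and 24 of the 26 listed genes of selenoproteins and their synthesis were tested. Peak GC cells, against naive cells, had 9 higher and 10 lower of these (median -0.07, against 0.01 over all genes tested), in in vivo activated cells 7 of 24 tested genes rose and 12 fell (median -0.15, against -0.02 over all genes tested), and at 24 h 10 of 24 tested genes rose and 11 fell (median -0.06, against -0.01 over all genes tested). These counts lie beside a background of 40.5% higher and 39.3% lower over all genes in peak GC cells, and they single out no direction. Sepp1, the selenium carrier selenoprotein P, rose in peak GC cells (7.12 ± 0.04 log2, adjusted p = 7.03e-12) and fell in in vivo activated cells (4.39 ± 0.12, adjusted p = 1.55e-11), against 5.73 ± 0.04 in naive cells. The macrophage marker sums given with Hmox1 differ between the same groups; their part in this result was not tested. Of the lipid peroxidation and ferroptosis list, in peak GC cells 11 of 20 tested genes rose and 5 fell (median 0.51, against 0.01 over all genes tested), among them Fads1, a fatty acid desaturase that makes polyunsaturated chains, at 5.11 ± 0.11 log2, against 1.32 ± 0.14 in naive cells (adjusted p = 4.26e-22). Scd1, which makes monounsaturated chains, fell to 9.01 ± 0.14 log2 in peak GC cells, against 11.15 ± 0.02 in naive cells (adjusted p = 5.93e-20).

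Sod2, the manganese superoxide dismutase of mitochondria, peaked at 4 h in vitro. Its log2 level was 6.10 ± 0.07 in early GC, 6.0 ± 0.13 in peak GC, 6.22 ± 0.05 in late GC and 5.46 ± 0.07 in in vivo activated cells, against 6.16 ± 0.04 in naive cells. In vitro it was 7.03 ± 0.09 at 4 h, 6.54 ± 0.02 at 12 h and 6.11 ± 0.05 at 24 h. The 4 h libraries were above and the in vivo activated libraries below those of every other group. The log2 fold change against naive cells was 0.87 ± 0.06 at 4 h (adjusted p = 9.68e-12) and -0.70 ± 0.06 in in vivo activated cells (adjusted p = 4.31e-10). It was not called in early GC cells (-0.06 ± 0.06, 95% interval -0.19 to 0.07), late GC cells (0.05 ± 0.06, 95% interval -0.07 to 0.18) or at 24 h (-0.05 ± 0.06, 95% interval -0.18 to 0.08), with adjusted p of 0.389, 0.426 and 0.443. The log2 fold change of -0.17 ± 0.06 in peak GC cells (adjusted p = 0.019) lost its call in a fit on the 2 groups (adjusted p = 0.0829) and without peak GC replicate 1 or naive replicate 1 (adjusted p = 0.187 and 0.0688). Of 8 tested genes of superoxide and peroxide removal, Cat, catalase, rose in peak GC cells, to 8.77 ± 0.08 log2, and fell at 24 h in vitro, to 6.56 ± 0.03, against 7.91 ± 0.04 in naive cells (adjusted p = 1.61e-12 and 1.82e-16). In that list, 4 genes rose and 2 fell in peak GC cells (median 0.19, against 0.01 over all genes tested), 4 rose and 3 fell in in vivo activated cells (median 0.11, against -0.02 over all genes tested), and 3 rose and 3 fell at 24 h (median -0.03, against -0.01 over all genes tested).

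Osgin1, an oxidative stress induced growth inhibitor and a known NRF2 target, had the widest range of the 10 genes. Its log2 levels were 4.34, 3.70 and 3.79 in early GC, 3.08, 3.70 and 3.63 in peak GC, 2.26, 3.20 and 3.22 in late GC and 3.08, 2.09 and 2.17 in in vivo activated libraries, against 6.66, 6.07 and 5.84 in naive libraries. In vitro the libraries had 2.36, 2.35 and 2.46 at 4 h, 0.98, 0.86 and 0.92 at 12 h and -1.30, -0.51 and -0.56 at 24 h. The naive libraries were above every other library, and the 24 h libraries below every other library. Against naive cells the log2 fold change was -2.25 ± 0.29 in early GC (adjusted p = 3.95e-07), -2.72 ± 0.29 in peak GC (adjusted p = 2.07e-08), -3.30 ± 0.29 in late GC (adjusted p = 9.51e-10) and -3.75 ± 0.29 in in vivo activated cells (adjusted p = 1.18e-10). In vitro it was -3.80 ± 0.29 at 4 h, -5.27 ± 0.29 at 12 h and -6.98 ± 0.29 at 24 h, the last a 126-fold lower level (adjusted p = 1.31e-15). With 1 CPM added before the log, the 12 h and 24 h fold changes were -4.68 and -5.54 and stayed called, so the size at these low levels depends on the scale. Each in vitro step fell, by 1.47 ± 0.29 log2 between 4 h and 12 h (adjusted p = 1.63e-04) and by 1.71 ± 0.29 between 12 h and 24 h (adjusted p = 4.11e-05); the second was -0.86 with 1 CPM added.

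Of 30 listed NRF2 target genes, 5 of them among the 10 genes, 21 were tested. Between peak GC and naive cells 9 of 21 tested genes rose and 9 fell (median log2 fold change -0.12, against 0.01 over all genes tested), in in vivo activated cells 9 of 21 tested genes rose and 12 fell (median -0.39, against -0.02 over all genes tested), and at 24 h 8 of 21 tested genes rose and 9 fell (median -0.02, against -0.01 over all genes tested). At 4 h in vitro 11 of 21 tested genes rose and 7 fell (median 0.21, against -0.01 over all genes tested). Over all genes tested, 40.5% were higher and 39.3% lower in peak GC cells, 39.2% and 40.1% in in vivo activated cells, 42.2% and 42.5% at 24 h, and 38.9% and 39.1% at 4 h, and nothing particular to the list is read from its counts. Ptgr1, a prostaglandin reductase, rose in peak GC cells, to 5.18 ± 0.04 log2, and in in vivo activated cells, to 4.33 ± 0.11, against 1.42 ± 0.23 in naive cells (adjusted p = 3.48e-17 and 6.09e-15). Abcc1, an exporter of glutathione conjugates, was at 4.88 ± 0.13 in in vivo activated cells, against 6.44 ± 0.07 in naive cells (adjusted p = 8.10e-15).

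Enzymes that supply NADPH, the electron source of glutathione and thioredoxin reductases, were listed with related enzymes that do not make it. Of this list, 7 to 11 of 14 tested genes were higher and 1 to 5 lower across the 7 comparisons with naive cells. In peak GC against naive cells 9 of 14 tested genes rose and 3 fell (median 0.55, against 0.01 over all genes tested), in in vivo activated cells 10 of 14 tested genes rose and 1 fell (median 0.87, against -0.02 over all genes tested), and at 24 h 11 of 14 tested genes rose and 1 fell (median 0.57, against -0.01 over all genes tested). At 4 h 7 of 14 tested genes rose and 5 fell, and against in vivo activated cells 5 were higher and 9 lower in peak GC cells. The background over all genes tested was 40.5% higher in peak GC, 39.2% in in vivo activated, 38.9% in 4 h and 42.2% in 24 h cells, each against naive cells, and 34.1% higher and 35% lower between peak GC and in vivo activated cells. Mthfd2, a mitochondrial folate enzyme, was at 6.67 ± 0.03 log2 in peak GC cells, 7.19 ± 0.24 in in vivo activated cells and 7.20 ± 0.06 at 24 h, against 4.07 ± 0.05 in naive cells (adjusted p = 3.36e-18, 1.77e-19 and 8.13e-20). Nnt, the mitochondrial transhydrogenase, fell to 4.21 ± 0.01 in peak GC cells, against 6.23 ± 0.02 in naive cells (adjusted p = 8.29e-18). Of the NADPH oxidase list, a source of superoxide, in peak GC cells 2 of 9 tested genes rose and 6 fell (median -0.62, against 0.01 over all genes tested), with the subunit Ncf1 at 6.26 ± 0.23 log2, against 7.99 ± 0.07 in naive cells (adjusted p = 9.32e-13).

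Peak GC and in vivo activated cells, both activated in the animal, were set against each other directly. Of the 10 genes, 5 were higher and 3 lower in peak GC cells (background 69.2% of all genes called, 34.1% higher and 35% lower). Nfe2l2 (1.08 ± 0.16 log2), Gclc, Hmox1 (1.70 ± 0.24), Sod2 (0.54 ± 0.06) and Osgin1 (1.02 ± 0.29) were higher, with adjusted p of 5.27e-06, 9.53e-15, 1.60e-06, 6.97e-08 and 0.00367. Gclm, Txnrd1 and Gpx4 (-0.30 ± 0.08 log2, adjusted p = 0.00216) were lower. Keap1 was not called (-0.10 ± 0.06 log2, adjusted p = 0.179, 95% interval -0.23 to 0.03), and neither was Prdx1. A change of 2-fold or more was called for 4 of the 10 genes (background 23.6%).

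Few of the 10 genes passed the test between GC stages. Between peak and early GC cells 0 of 10 genes were called by limma (background 13.2% of all genes called, 5.77% higher and 7.42% lower), 0 had an unadjusted p under 0.05, and the 95% intervals of the log2 differences lay between -1.08 and 0.63. Between late and peak GC cells 2 were higher and 0 lower (background 32.6% of all genes called, 12% higher and 20.6% lower). Gclm had log2 levels of 5.22, 4.87 and 5.12 in late GC libraries, against 4.47, 4.46 and 4.63 in peak GC libraries, without overlap (0.55 ± 0.10 log2, adjusted p = 2.08e-04). Erythroid markers summed to 1430, 768 and 985 CPM in the same late GC libraries, against 200, 216 and 179 CPM in the peak GC libraries, and macrophage and monocyte markers to 494 to 2100 CPM, against 123 to 271 CPM. In early GC cells replicate 2 was highest both in Gclm (4.99 log2) and in erythroid markers (783 CPM), and in late GC cells replicate 1 was highest in both. In peak GC cells replicate 3 was highest in Gclm (4.63 log2) and lowest in erythroid markers (179 CPM). At 24 h in vitro, Gclm had its highest mean (5.52 log2), while erythroid markers summed to 1.21 to 1.65 CPM. The part of these markers in the Gclm result was not tested. Sod2 was higher by 0.22 ± 0.06 (adjusted p = 0.00993), a call lost without peak GC replicate 1 (adjusted p = 0.088) and in a fit on the 2 groups (adjusted p = 0.121). Between late and early GC cells 1 was higher and 1 lower (background 35.1% of all genes called, 13% higher and 22.1% lower). Gclm was again higher (0.37 ± 0.10, adjusted p = 0.00544), but the libraries overlapped and the call was lost in a fit on the 2 groups (adjusted p = 0.0848). Osgin1 was lower in late GC cells (-1.05 ± 0.29, adjusted p = 0.0079), which rested in part on late GC replicate 1 (2.26 log2), since without it the fold change was -0.73 (adjusted p = 0.0586). A change of 2-fold or more was called for 0, 0 and 1 of the 10 genes between peak and early, late and peak, and late and early GC cells (background 3.04%, 8.27% and 7.3%).

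Successive in vitro times were also compared. Between 12 h and 4 h, 4 genes were higher and 4 lower (background 61.9% of all genes called, 34.6% higher and 27.2% lower). Keap1 (0.62 ± 0.06), Gclm (0.64 ± 0.10), Txnrd1 (0.56 ± 0.05) and Prdx1 (0.64 ± 0.07) had the positive log2 fold changes, with adjusted p of 1.76e-08, 5.02e-06, 4.31e-10 and 5.36e-08. Gclc (-0.54 ± 0.06) and Sod2 (-0.49 ± 0.06) joined Nfe2l2 and Osgin1 on the lower side, with adjusted p of 3.75e-08 and 4.21e-07. Between 24 h and 12 h, 1 gene was higher and 5 lower (background 57.3% of all genes called, 22.5% higher and 34.8% lower). Gclc (-0.42 ± 0.06, adjusted p = 2.27e-06), Sod2 (-0.43 ± 0.06, adjusted p = 4.61e-06) and Txnrd1 (-0.18 ± 0.05, adjusted p = 0.00163) fell further or turned down. Hmox1 also fell (-0.58 ± 0.24, adjusted p = 0.0423), but that call was lost in 9 alternatives, with adjusted p of 0.054 to 0.117. A change of 2-fold or more was called for 1 of the 10 genes in each step, Osgin1 (background 12.1% between 12 h and 4 h and 12.2% between 24 h and 12 h). The 2 steps share the 12 h libraries.

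Averaged over the 8 group means and set per kilobase of exon, the 10 genes ordered from Prdx1 (7.44 log2 CPM per kilobase) through Gpx4 (5.14), Gclc (4.20), Txnrd1 (3.89), Keap1 (3.38), Sod2 (2.88), Nfe2l2 (2.85), Hmox1 (2.54) and Gclm (2.23) to Osgin1 (1.26). That order depends on the merged exon lengths used. The widest span of group means was that of Osgin1 (6.98 log2), followed by Hmox1 (2.71) and Prdx1 (2.08), and the narrowest those of Gpx4 (0.87) and Keap1 (0.72). Across the 24 libraries, which share their 8 groups and so are no independent points, Gclm and Prdx1 tracked each other (r = 0.88) and ran against Osgin1 (r = -0.90 for Gclm and -0.89 for Prdx1), and Txnrd1 ran against Hmox1 (r = -0.85). Gpx4 ran against Sod2 (r = -0.79). Between Nfe2l2 and known targets of its protein the sign differed. It was negative for Gclm (r = -0.80), Prdx1 (r = -0.74) and Txnrd1 (r = -0.38), and positive for Osgin1 (r = 0.70), Hmox1 (r = 0.59) and Gclc (r = 0.39).

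By the highest Pearson r over the same 24 libraries among all genes tested, the genes most like each member were named, with nothing implied about shared control. For Nfe2l2 they were Bbx (r = 0.927), Sp4 (r = 0.922) and B3gnt8 (r = 0.911). For Keap1 they included Mrps21 (r = 0.963) and Acads (r = 0.963), the first a mitochondrial ribosomal protein. For Gclc they were Map1s (r = 0.947), Twsg1 (r = 0.929) and Cul4a (r = 0.929), and for Gclm Fam129a (r = 0.956), Lman1 (r = 0.955) and Psmc6 (r = 0.932), which include a proteasome subunit. For Txnrd1 they were Ctr9 (r = 0.989), Med23 (r = 0.987) and Arf3 (r = 0.985), and for Hmox1 Slpi (r = 0.951), Cpne5 (r = 0.95) and Enpp1 (r = 0.948). Gpx4 was most like Mfsd10 (r = 0.935), Arsb (r = 0.923) and Scly (r = 0.912), and Sod2 most like Pde3b (r = 0.951), Pknox1 (r = 0.948) and Lonrf1 (r = 0.941). Prdx1 was most like Tcp1 (r = 0.992), Cops5 (r = 0.992) and Psmd14 (r = 0.99), a chaperonin subunit, a signalosome subunit and a proteasome subunit. Osgin1 was most like Plk2 (r = 0.973), Rasgrp2 (r = 0.969) and Smad7 (r = 0.969).

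The 10 genes, all protein coding, lie on the mouse genome build mm10 (GENCODE M21 annotation) as follows. Nfe2l2 is at chr2:75675513-75704641 on the minus strand and Keap1 at chr9:21229730-21239361 on the minus strand. Gclc is at chr9:77754535-77794485, Gclm at chr3:122245557-122270732 and Txnrd1 at chr10:82833951-82897712, all on the plus strand. The plus strand also holds Hmox1 at chr8:75093621-75100589, Gpx4 at chr10:80047166-80056439, Sod2 at chr17:13006846-13040063, Prdx1 at chr4:116685544-116700822 and Osgin1 at chr8:119434124-119446256. Values are per gene over its exons, so no exon, intron or UTR is resolved.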

How the data were processed

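RNA of 24 libraries was sequenced in read pairs with a stranded mRNA kit, per the labels' protocols. The submitters' processing notes name STAR 2.6.0c and the genome mm10, featureCounts and Subread 1.6.2, limma, and for read quality and trimming FastQC 0.11.5 and cutadapt 1.8.3; options are not given in the sources used here. The deposited log2 values of each library, per gene, are on a scale like CPM, read from the values themselves (sums of 990678 to 1008194 after undoing the log), and replicate-number means agree within 0.0009 log2, a step that no source used here describes; depth is unknown and its precision cannot be given. Libraries were grouped by their labels. Limma 3.58.1 (R 4.3.3; trend, robust, 1 mean per group over 24 libraries) tested 13 comparisons, two-sided, on 11885 genes with a log2 value of at least 0 in at least 3 libraries, with Benjamini-Hochberg adjustment, after the code was tested on simulated data. Tables used Python 3.11.15 and pandas 2.3.3. All 10 members are named; other genes are chosen from, per list and comparison, the 2 called genes in each direction with the smallest p, from the 3 genes of highest r for each member, and from the first 3 markers of a list; not all that qualify are named, and 1 of those with the highest r is not reported here. Vcam1, Slc40a1, Lyz2 and Blvra were chosen after their values were seen. The members and lists were chosen with earlier results of these data known. Alternatives were other filters, a pseudocount, centring, plain moderation, 2-group fits, a replicate block and leaving out each library.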

Additional observations from a re-analysis of the deposited data

Results flagged for a closer look

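Gclc and Hmox1 were picked out because their changes against naive cells ran in opposite directions in peak GC and in in vivo activated cells, with the difference tested directly between these 2 groups. Gclc changed by 0.84 log2 in peak GC cells and by -0.39 in in vivo activated cells, a difference of 1.24 ± 0.06 (SE, limma adjusted p = 9.53e-15). Hmox1 changed by 0.64 log2 in peak GC cells and by -1.06 in in vivo activated cells, a difference of 1.70 ± 0.24 (limma adjusted p = 1.60e-06). Macrophage and monocyte markers, which differ between the same groups, summed to 123, 159 and 271 CPM in peak GC libraries and to 33.8 to 40.8 CPM in in vivo activated libraries. Of 11 tested macrophage and monocyte markers, 4 were higher and 1 lower in peak GC cells (background 34.1% higher and 35% lower). All 6 tested erythroid markers and all 6 tested neutrophil markers were higher. Erythroid markers summed to 179 to 216 CPM in peak GC libraries and to 14.5 to 21.0 CPM in in vivo activated libraries. The part of these markers in either result was not tested.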

How the results depend on the processing

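Of 130 fold changes of the 10 genes, 90 were called, and none of these changed sign in the alternatives run; 10 lost their call in at least 1. The number of members called kept within 1.5 times its value except among GC stages: late against peak GC had 1 instead of 2 in a fit on the 2 groups and 1 to 2 with a library left out, and late against early GC had 1 in a fit on the 2 groups and 1 to 3 with a library left out. Over all genes, the fit on the 2 groups called 577 instead of 1568 genes in peak against early GC, 1099 instead of 3877 in late against peak GC, and 2285 instead of 4169 in late against early GC; without early GC replicate 2 the first was 1034. With a library left out, 13 uncalled log2 fold changes crossed 0. Their ranges were -0.08 to 0.02 (Gpx4, in vivo activated against naive), -0.01 to 0.04 (Keap1, 4 h against naive) and -0.04 to 0.02 (Gclc, 24 h against naive). For peak against early GC they were -0.04 to 0.11 (Prdx1), -0.56 to 0.13 (Hmox1) and -0.14 to 0.01 (Keap1). For late against peak GC they were -0.03 to 0.03 (Txnrd1), -0.32 to 0.10 (Nfe2l2), -0.14 to 0.02 (Keap1) and -0.01 to 0.09 (Gclc). For late against early GC they were -0.03 to 0.10 (Gpx4), -0.04 to 0.31 (Nfe2l2) and -0.40 to 0.29 (Hmox1). The cause was not tested.

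Whether the replicate numbers pair the samples cannot be read from these values. Over 84 same-numbered pairs, deviations from the group means correlated at a median of -0.127 (-0.369 to 0.112). Replicate-number means agree within 0.0009 log2, so a shift shared by same-numbered libraries would no longer be visible, and no conclusion on pairing is drawn. With the number as a replicate block, 9, 10 and 9 members were called in early, peak and late GC against naive cells, and the only member call lost was Hmox1 at 24 h against 12 h (adjusted p = 0.0587), so 5 were called there. That fit could not move a fold change, because the replicate-number means were already equal. Its main effect was to lower the residual degrees of freedom from 16 to 14. The main fit did not allow for the step that made those means equal, so its p-values may be too small. The stricter filter moved no member call. Centring the libraries moved none either, but their medians already lay between 4.706 and 4.725 log2, so it could hardly have done so. Depth is unknown, so low values such as Osgin1 at 24 h have no detection limit.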
